A study of Mus musculus with 30 samples.

Results

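Extrasynaptic diaphragm of SBMA mice at 26 weeks of age was compared with extrasynaptic diaphragm of control mice of that age. The comparison rests on the 8 libraries that the labels give as extrasynaptic and 26 weeks, 4 SBMA and 4 control, of 30 libraries in the study. SBMA stands for spinal and bulbar muscular atrophy. The SBMA animals were male mice with the genotype BACfxAR121, spelled BACfxR121 in the sample labels, and the controls were male HSA-Cre;BACfxAR121 littermates. Every animal of the study therefore carried the transgene, and the controls added a Cre recombinase driven by the skeletal actin promoter (HSA), which acts in skeletal muscle fibres. Motor neurons and other cells outside muscle are not targeted by this Cre, and animals free of the transgene were not analysed here. The study also holds perisynaptic pieces of the same diaphragms, which contain the neuromuscular junctions, and both kinds of piece from mice of 15 weeks. Each library came from 1 animal, so replicates are separate animals.

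SBMA is an inherited disease of men in which an expanded CAG repeat damages motor neurons and skeletal muscle. In healthy innervated muscle, acetylcholine receptor genes are transcribed mainly by the few nuclei under the junction, while electrical activity keeps them low in the rest of the fibre, and loss of nerve input lifts this restraint. Fast and slow fibres differ in their myosins, calcium pumps and metabolism, and these programmes also follow the pattern of activity.

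The libraries held between 21160671 and 34694446 counts in genes, and 15526 genes were tested. Levels are given in CPM, counts scaled by library size with TMM factors. Log2 fold changes are SBMA minus control ± SE, and adjusted p-values come from the quasi-likelihood test of edgeR, adjusted over all genes tested by the Benjamini-Hochberg method. A gene is called when its adjusted p is under 0.05. In all, 5007 genes (32.2%) were called, 2502 higher (16.1%) and 2505 lower (16.1%), and 6707 had an unadjusted p under 0.05. By more than 2-fold, 378 were called higher and 422 lower, and by more than 4-fold 80 and 74. The CPM of the groups did not overlap for 4677 genes (30.1%). In a principal component analysis the first component took 46.9% of the variance and the controls lay at 25.1 to 35.6, all SBMA libraries at -35.6 to -22.7.

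Levels depend on the scaling, and abundant transcripts took a smaller share of the SBMA libraries. The 10 most abundant genes of the controls took 19.0% ± 0.448 (SD, n = 4) of control counts and 14.3% ± 0.483 (SD, n = 4) of SBMA counts. TMM factors, used throughout, put the median gene at -0.03 on the log2 scale, and scaling by total counts puts it at 0.18. With total-count scaling 6286 genes were called, 84.8% of them higher, against 50% with TMM factors, so that 34.3% of genes tested were then called higher and 6.14% lower. Changes below are relative to the median gene. Called counts of lists stand beside 32.2% of all genes with TMM factors. With total-count scaling they stand beside 34.3% higher and 6.14% lower. In bulk tissue, fewer cells of a type and less RNA per cell cannot be told apart.

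The regional label was checked with genes of the nuclei under the junction. On a scale set over all 30 libraries, Chrne, the adult epsilon subunit of the receptor, ranged from 0.334 to 0.736 CPM in these controls and from 18.2 to 35.9 CPM in the perisynaptic pieces of the same animals. Chrnd, the delta subunit, ranged from 0.951 to 2.21 CPM and from 19.9 to 35.7 CPM. The extrasynaptic control libraries thus held little transcript of these junctional genes. Acta1, skeletal actin, measured 26181, 26598, 23084 and 23185 CPM in the 4 controls, at levels of muscle tissue. The table lists mouse genes, and the transgene was not analysed here.

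The muscle acetylcholine receptor genes Chrna1 and Chrnb1 rose in SBMA muscle away from the junctions. Chrna1 (ENSMUSG00000027107.3) encodes the alpha subunit that binds acetylcholine and lies on chromosome 2 (73563215 to 73580338, GRCm38). Chrnb1 (ENSMUSG00000041189.9) encodes the beta subunit and lies on chromosome 11 (69784036 to 69795943). Their promoters are shown because E-boxes, the sites of muscle transcription factors such as myogenin, are a known feature of these genes. Each run covers 250 bases before to 50 bases after the start in RefSeq (GRCm38.p6), on the minus strand, 5′ to 3′, at chr2:73580289-73580588 and chr11:69795888-69796187. Capitals mark matches to CANNTG:
Chrna1: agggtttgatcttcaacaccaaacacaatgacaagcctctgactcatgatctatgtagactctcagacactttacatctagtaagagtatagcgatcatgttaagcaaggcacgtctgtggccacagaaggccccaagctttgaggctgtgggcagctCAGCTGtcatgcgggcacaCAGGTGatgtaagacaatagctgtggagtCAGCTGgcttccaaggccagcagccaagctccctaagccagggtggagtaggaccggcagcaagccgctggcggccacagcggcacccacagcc
Chrnb1: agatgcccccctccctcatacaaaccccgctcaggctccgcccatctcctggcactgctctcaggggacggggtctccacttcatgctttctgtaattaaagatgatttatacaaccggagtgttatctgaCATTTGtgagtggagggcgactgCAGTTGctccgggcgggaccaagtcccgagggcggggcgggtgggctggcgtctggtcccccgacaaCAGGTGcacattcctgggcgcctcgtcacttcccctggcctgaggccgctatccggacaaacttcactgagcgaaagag

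Each promoter held 3 E-boxes, with first bases at -92, -73 and -44 from the start in Chrna1 and at -119, -96 and -29 in Chrnb1. Neither window held the N-box core CCGGAA or the palindromic androgen response element on either strand. At least 1 E-box was present in 72.3% of all 32851 promoters in the table and in 65.2%, 67.7% and 64.2% of those of genes called higher, called lower and tested without a call. Over all promoters the median was 1 E-box, and 6.49% held 4 or more. The share with 3 or more was not counted. The match describes these letters only. Of the genes tested, 11282 of 15526 had a promoter in the table.

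Chrna1 measured 12.7, 9.11, 15.4 and 13.6 CPM in controls 1 to 4 and 70.5, 62.7, 60.2 and 56.3 CPM in SBMA animals 1 to 4. The groups lay far apart, with the lowest SBMA library above the highest control, and the log2 fold change was 2.30 ± 0.171 (adjusted p = 2.75e-07). Chrnb1 measured 26.3, 25.9, 27.2 and 31.6 CPM in controls and 114, 114, 103 and 71.2 CPM in SBMA libraries (1.86 ± 0.134, adjusted p = 2.07e-07). SBMA replicate 4 was the lowest of its group for both genes and still above every control. Of 5 subunit genes, 4 were tested and these 2 rose. Chrnd did not pass, with controls at 0.938 to 2.18 CPM and SBMA libraries at 1.46 to 4.43 CPM (0.88 ± 0.446, adjusted p = 0.144). It passed in edgeR fits of these 8 libraries with the replicate number or the run of animals as a block (0.88 and 0.89, adjusted p = 0.0413 and 0.0423). Chrne stood at 0.330, 0.447, 0.727 and 0.520 CPM in controls and at 0.126, 0.169, 0.0321 and 1.70 CPM in SBMA libraries, so its SBMA values rest on replicate 4 (log2 fold change -0.07, and -2.19 without that library). The fetal gamma subunit gene Chrng was too low to be tested and reached 0.772 CPM at most.

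**Figure D1:**
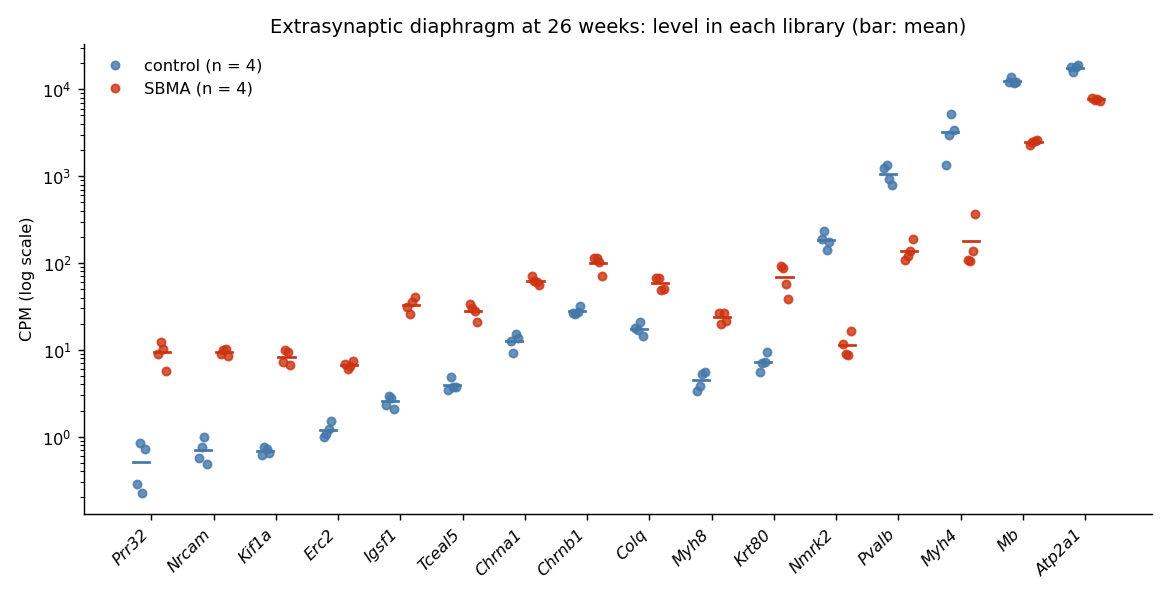
CPM on a log axis for 16 genes in each of the 4 control (blue) and 4 SBMA (red) extrasynaptic libraries at 26 weeks, with a bar at each group mean. The groups do not overlap for any of the 16 genes, and Myh4 lies between 1351 and 5176 CPM in controls and between 105 and 368 CPM in SBMA libraries.

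Among 26 tested genes of the synaptic apparatus 10 rose and 3 fell, 50% called beside 32.2% of all genes. The median was 0.21 against -0.03 over all genes, and with total-count scaling 14 rose and 1 fell. Musk, the kinase that organises receptor clusters, measured 22.7, 13.7, 40.9 and 55.3 CPM in controls and 95.4, 97.8, 83.6 and 77.0 CPM in SBMA libraries (1.41 ± 0.285). The difference in Musk was 2.42 in the first and 0.76 in the second of the 2 runs of animals described below. Colq, the collagen tail of acetylcholinesterase, measured 14.5 to 21.1 CPM in controls and 49.2 to 67.9 CPM in SBMA libraries (1.73 ± 0.196). Bche, butyrylcholinesterase, rose by 0.82 ± 0.128 and Gramd1b, a sterol transporter, by 0.87 ± 0.118. Etv5, an ETS transcription factor of junctional nuclei, rose from 4.10 to 5.24 CPM in controls to 6.34 to 9.56 CPM in SBMA libraries (0.86 ± 0.163). Ufsp1, another gene enriched at the junction, fell by 0.57 on the log2 scale (adjusted p = 0.0134) and was not called with total-count scaling (-0.35). So Chrna1, Chrnb1, Musk and Colq rose, while Ufsp1 fell and Chrne did not pass. The summed level of 10 markers of junctional nuclei was 217 to 324 CPM in controls and 474 to 556 CPM in SBMA libraries. Of these markers 6 were called higher, 1 lower and none was at 0 in all 8 libraries. The list includes Chrna1, Musk, Colq and Etv5, so the sum is not separate from the rises given above. The part of junctional tissue in these values was not tested, and Chrne and Ufsp1, both on that list, were not called higher.

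Of 21 tested genes of the denervation response 6 rose and 3 fell (median 0.30), 42.9% called beside 32.2% of all genes. With total-count scaling 11 rose and 2 fell, where 34.3% of all genes were called higher and 6.14% lower. Ncam1, a cell-adhesion molecule that spreads over fibres without nerve contact, measured 7.11, 12.9, 11.3 and 11.3 CPM in controls and 36.1, 33.8, 29.8 and 21.3 CPM in SBMA libraries (1.5 ± 0.185). Ankrd1, a titin-binding stress protein, ranged from 2.18 to 7.55 CPM in controls and from 10.6 to 24.9 CPM in SBMA libraries (1.95 ± 0.372). Among other members of this group, Myog and Runx1 had smaller and less stable positive differences, and Ky fell. Myog, the gene of myogenin, rose by 0.62 ± 0.196 (adjusted p = 0.0252), and the call was lost without SBMA replicate 3 (0.57) or control replicates 1 and 4 (0.57 and 0.53). Runx1, a transcription factor of denervated muscle, did not pass (0.56 ± 0.22, adjusted p = 0.0611), but did in 6 of the alternatives: without control replicate 1 or 3 (0.78 and 0.67), with total-count scaling (0.78), with the replicate block (0.64), with DESeq2 (0.57) and with no filter on low counts (0.59). Without single animals it ranged from 0.38 to 0.78. Ky, a muscle peptidase, fell from 193, 162, 182 and 94.9 CPM to 32.5, 23.3, 41.2 and 43.4 CPM (-2.17 ± 0.271).

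Of 8 genes on a list of developmental myosins, actins and sarcomere genes 3 rose and none fell (median 0.43). This is a share of 37.5% called beside 32.2% of all genes. The list also holds genes abundant in these adult controls, such as Nrap. Myh8, the perinatal myosin heavy chain, measured 3.34, 3.89, 5.32 and 5.56 CPM in controls and 26.8, 19.9, 26.9 and 21.4 CPM in SBMA libraries (2.38 ± 0.172). Nrap, an anchor of thin filaments at developing myofibrils and myotendinous junctions, went from 1892 to 2983 CPM in controls to 3053 to 3669 CPM in SBMA libraries (0.58 ± 0.124). Tnnt2, the cardiac and fetal troponin T, rose by 1.46 ± 0.347 with overlapping groups, at 1.65 to 4.19 CPM and 3.76 to 10.6 CPM. The embryonic myosin gene Myh3 did not pass (0.28 ± 0.234, adjusted p = 0.374), and ranged from 0.10 to 0.49 without single animals.

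Markers of satellite cells, the muscle stem cells, rose in SBMA muscle, with 7 of 10 called higher, none lower and a median of 0.67. Pax7, their defining transcription factor, measured 4.28, 3.22, 4.95 and 2.47 CPM in controls and 9.93, 8.81, 6.26 and 5.54 CPM in SBMA libraries (1.04 ± 0.253). Myf5, a myogenic factor, rose by 1.00 ± 0.206, the receptor gene Megf10 by 0.95 ± 0.186 and the proteoglycan gene Sdc4 by 0.83 ± 0.158. All 4 genes were higher in every SBMA library than in any control. The summed level of the 10 markers was 3915 to 4318 CPM in controls and 4604 to 5632 CPM in SBMA libraries. The 10 include Des, desmin, a filament gene that muscle fibres also express. The sum is therefore not a level of satellite cells alone. Within the second run alone 1 of the 10 was called, against 5 in the first run, and the list medians were 0.42 and 0.68. Pax7, Myf5 and Sdc4 were among those not called in the second run (0.72, 0.73 and 0.37).

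Several large rises belonged to transcripts that control diaphragm held at a few CPM or less, some of them known from neurons. Prr32 (ENSMUSG00000037086.3, chromosome X, 45090904 to 45092791), which encodes a proline-rich protein, measured 0.282, 0.849, 0.227 and 0.716 CPM in controls and 8.92, 12.4, 10.3 and 5.79 CPM in SBMA libraries (4.12 ± 0.347). Nrcam (ENSMUSG00000020598.16, chromosome 12, 44328885 to 44601964), an adhesion molecule of axons, went from 0.488 to 1.00 CPM in controls to 8.61 to 10.2 CPM (3.77 ± 0.237). Kif1a (ENSMUSG00000014602.15, chromosome 1, 93015464 to 93101951), a motor that carries synaptic vesicle precursors along axons, measured 0.612, 0.759, 0.727 and 0.650 CPM against 7.28, 9.93, 9.34 and 6.74 CPM (3.59 ± 0.323). Every SBMA library lay above every control for these 3 genes. Igsf1, an immunoglobulin superfamily membrane protein, measured 2.35, 2.95, 2.82 and 2.08 CPM in controls and 31.0, 25.9, 35.6 and 40.4 CPM in SBMA libraries (3.71 ± 0.171). Erc2, an active zone scaffold, rose by 2.47 ± 0.186 and Kcnj3, a G protein-gated potassium channel, by 2.44 ± 0.199. Enkur, an adaptor of calcium channels in sperm, rose by 2.76 ± 0.31. Hectd2os is annotated antisense to Hectd2 (3.56 ± 0.155), and since the strand setting of the counting is not given in the sources used here, reads of the 2 genes may be mixed.

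Krt80 (ENSMUSG00000037185.9, chromosome 15, 101347444 to 101370162), a keratin of epithelia, measured 5.51, 7.15, 7.22 and 9.40 CPM in controls and 93.4, 87.3, 58.1 and 39.0 CPM in SBMA libraries (3.24 ± 0.297). SBMA replicates 3 and 4, both of the second run, were the lower pair, and the difference was 3.84 in the first and 2.56 in the second run. Of 22 tested genes on a broader list of neuronal transcripts, 5 rose and 2 fell with a median of -0.08, which is a share of 31.8% called beside 32.2% of all genes. The higher count was 3 without SBMA replicate 1 or 3, and the lower count 1 without SBMA replicate 2 or control replicate 2. Transcripts of the Tceal and Bex family, small X-linked proteins, rose in 6 of 8 tested cases and fell in none (median 0.88). Tceal5 measured 3.44 to 4.87 CPM in controls and 21.1 to 33.4 CPM in SBMA libraries (2.83 ± 0.184). Tceal7 rose by 2.48 ± 0.222, Bex1 by 2.30 ± 0.215 and Tceal9 by 0.95 ± 0.0869, and Bex3 stood at -0.25 ± 0.252 without a call.

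Genes of fast fibres fell together, with 17 of 20 called lower, none higher and a median of -0.97 (-0.76 with total-count scaling, 15 lower). Myh4 (ENSMUSG00000057003.12, chromosome 11, 67238029 to 67260446), the myosin heavy chain of the fastest fibres, measured 1351, 3004, 5176 and 3401 CPM in controls and 109, 105, 138 and 368 CPM in SBMA libraries. The log2 fold change was -4.17 ± 0.533 (adjusted p = 3.95e-05), and it was -4.78 without SBMA replicate 4, the highest of its group. Pvalb, the calcium buffer parvalbumin, measured 1227, 1354, 924 and 784 CPM against 107, 121, 138 and 190 CPM (-2.95 ± 0.196). Atp2a1, the fast calcium pump SERCA1, was at 15859 to 18894 CPM in controls and at 7373 to 7876 CPM in SBMA libraries (-1.22 ± 0.0763). Myoz1 of the Z disc fell by 1.25 on the log2 scale and the light chain gene Mylpf by 1.00. Within each run 16 and 13 of the 20 fast genes were called lower, and none higher.

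Slow-fibre genes moved in both directions, with 3 of 14 called higher and 5 lower (median -0.29), and with total-count scaling 4 rose and 4 fell. The slow troponin gene Tnni1 measured 106, 177, 177 and 155 CPM in controls and 39.2, 40.0, 58.4 and 70.9 CPM in SBMA libraries (-1.56 ± 0.229), and the slow light chain gene Myl3 fell by 1.03 on the log2 scale. Casq2, the slow-fibre calsequestrin, rose from 280 to 390 CPM in controls to 606 to 691 CPM in SBMA libraries (0.89 ± 0.0992). Myh7, the slow myosin, fell by 0.75 on the log2 scale (adjusted p = 0.0175), and the call was lost without SBMA replicate 1 (-0.62), without control replicate 3 (-0.61) and with total-count scaling (-0.53). Myh1 and Myh2, the other adult fast myosins, fell by 1.19 and 1.39 on the log2 scale.

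To set the myosins side by side, counts were divided by exonic length and given as shares of 6 skeletal heavy chain transcripts. Myh4 made up 4.34%, 10.3%, 12.9% and 8.64% of this pool in controls and 0.870%, 0.839%, 0.903% and 2.44% in SBMA libraries. The means were 9.04% ± 3.59 (SD, n = 4) and 1.26% ± 0.785 (SD, n = 4), groups that did not overlap (2-sided exact permutation p = 0.0286, adjusted over 6 genes 0.0572). This is the smallest p that 4 against 4 can give. Myh1 made up 68.0% ± 4.18 in controls and 74.9% ± 1.35 in SBMA libraries (exact permutation p = 0.0571), Myh2 16.1% to 23.4% and 18.4% to 19.7% (exact permutation p = 0.629), and Myh7 2.99% ± 0.704 and 4.48% ± 0.619 (exact permutation p = 0.0571). Myh8 stayed a trace at 0.00657% ± 0.000752 and 0.0883% ± 0.0159. Myh1 remained the most abundant heavy chain transcript in all 8 libraries.

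**Figure D2:**
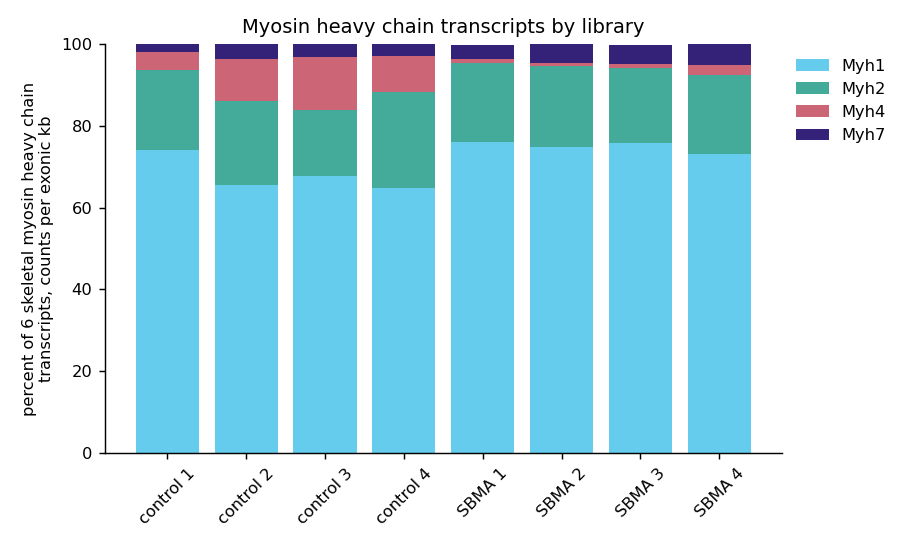
Share of each heavy chain transcript in the pool of 6 skeletal myosin heavy chains, as counts per exonic kilobase, in percent, for each control and SBMA library. Myh4 takes 4.34% to 12.9% of the control bars and 0.839% to 2.44% of the SBMA bars, while Myh3 and Myh8 are too low to be drawn.

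Sarcomere genes were called in 29 of 46 cases, 15 higher and 14 lower, with a median of -0.01 that became 0.21 with total-count scaling, where 21 rose and 9 fell. Tcap, the titin cap of the Z disc, measured 3018, 4682, 3301 and 3817 CPM in controls and 980, 911, 1498 and 1426 CPM in SBMA libraries (-1.62 ± 0.178). Tmod4, which caps thin filaments, fell by 1.53 on the log2 scale and Acta1 by 1.00. Called higher, the sarcomere list counted 10 without SBMA replicate 3 and 17 without control replicate 4. Within the first run 14 rose and 9 fell, and within the second 5 and 7.

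Calcium handling genes changed in both directions. With TMM factors, of 19 tested pumps and buffers of the sarcoplasmic reticulum 7 fell and 2 rose, the latter count being 1 without SBMA replicates 1, 3 or 4 or control replicates 1 or 2, and with total-count scaling 6 fell and 6 rose. Casq1, the calcium store of fast fibres, measured 865 to 957 CPM in controls and 550 to 603 CPM in SBMA libraries (-0.67 ± 0.0674), and Hrc, another luminal calcium binder, fell by 0.74 on the log2 scale. Of 24 genes of the triad, where the membrane signal opens the calcium store, 7 fell and 5 rose, and with total-count scaling 3 fell and 9 rose. Cacna1s, the voltage sensor, measured 1475, 1209, 1674 and 1648 CPM in controls and 926, 919, 948 and 844 CPM in SBMA libraries (-0.72 ± 0.0901). Its subunit gene Cacng1 fell by 1.37 on the log2 scale and Jph2, which holds the membranes together, by 0.53. Ryr1, the calcium release channel of adult muscle, fell by 0.52 (adjusted p = 0.0128) with overlapping groups, and was not called with total-count scaling (-0.30) or in the fit of the 8 libraries alone (-0.50). Ryr3, a release channel more abundant in developing muscle, rose from 8.0 to 14.1 CPM in controls to 26.3 to 34.5 CPM in SBMA libraries (1.41 ± 0.181).

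Among 23 genes that set membrane excitability 10 fell and 2 rose, with a median of -0.17 that became 0.04 with total-count scaling, where 9 fell and 4 rose. Potassium channel genes Kcnc1 and Kcna7 fell by 1.73 and 1.25 on the log2 scale. Beta subunit genes of the sodium pump family went in opposite directions. Atp1b1 measured 694, 819, 709 and 894 CPM in controls and 386, 437, 328 and 323 CPM in SBMA libraries, and fell by 1.08 ± 0.13 on the log2 scale. Atp1b4 measured 10.7, 14.2, 10.5 and 4.33 CPM in controls and 28.8, 25.2, 24.7 and 18.2 CPM in SBMA libraries, a rise of 1.30 ± 0.346. For neither gene did the groups overlap, and with total-count scaling the values were -0.86 for Atp1b1 and 1.49 for Atp1b4. Within the second run alone Atp1b4 differed by 1.59 and did not pass (edgeR's quasi-likelihood test, adjusted p = 0.0587).

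Nuclear genes of the respiratory chain fell by small amounts in nearly all cases. Of 37 tested subunits of complex I, which takes electrons from NADH, 35 were called lower and none higher (median -0.43), and of 42 subunits of complexes II to V 34 fell and 1 rose (median -0.36). Ndufa5 measured 338, 392, 289 and 295 CPM in controls and 177, 193, 185 and 188 CPM in SBMA libraries (-0.82 ± 0.0934), and Ndufs7 fell by 0.79 on the log2 scale. In complexes III and IV, Uqcrc1 fell by 0.81, Cyc1 by 0.60 and Cox6a2, the muscle isoform, by 0.68, while Cox8a was the 1 that rose (0.47 ± 0.102). With total-count scaling the medians were -0.22 and -0.15, with 14 and 12 called lower. Within the first run 32 and 26 were called lower and within the second run 13 and 10, and the medians were below 0 in both. Without single animals complex I kept 32 to 36 lower calls.

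Mitochondrial ribosomal protein genes fell in 48 of 72 cases and rose in none (median -0.30). Mrpl18 measured 107 to 130 CPM in controls and 75.2 to 81.4 CPM in SBMA libraries (-0.62 ± 0.0672). With total-count scaling the list had a median of -0.09, with 14 lower and 2 higher. Of 25 genes of the citric acid cycle and its regulation 15 fell and 2 rose, the latter count being 0 without SBMA replicates 1, 2 or 3 or control replicates 1 or 2 and 1 without SBMA replicate 4. With total-count scaling 7 fell and 4 rose, with a median of -0.09. Idh2 measured 1735, 1977, 1626 and 1631 CPM against 874, 920, 1023 and 1121 CPM (-0.82 ± 0.1), and Pdp1, the phosphatase that activates pyruvate dehydrogenase, fell by 1.06 on the log2 scale. Idh3b and Pdk2 fell by 0.57 and 0.59. Ppargc1a, a coactivator of mitochondrial genes and of the fatty acid list below, did not pass, with controls at 403, 165, 720 and 890 CPM and SBMA libraries at 421, 360, 188 and 251 CPM (-0.84 ± 0.482, adjusted p = 0.197). Its difference was 0.47 in the first run and -1.85 in the second, where it passed (edgeR, adjusted p = 0.00647), and it ranged from -1.14 to -0.49 without single animals.

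**Figure D3:**
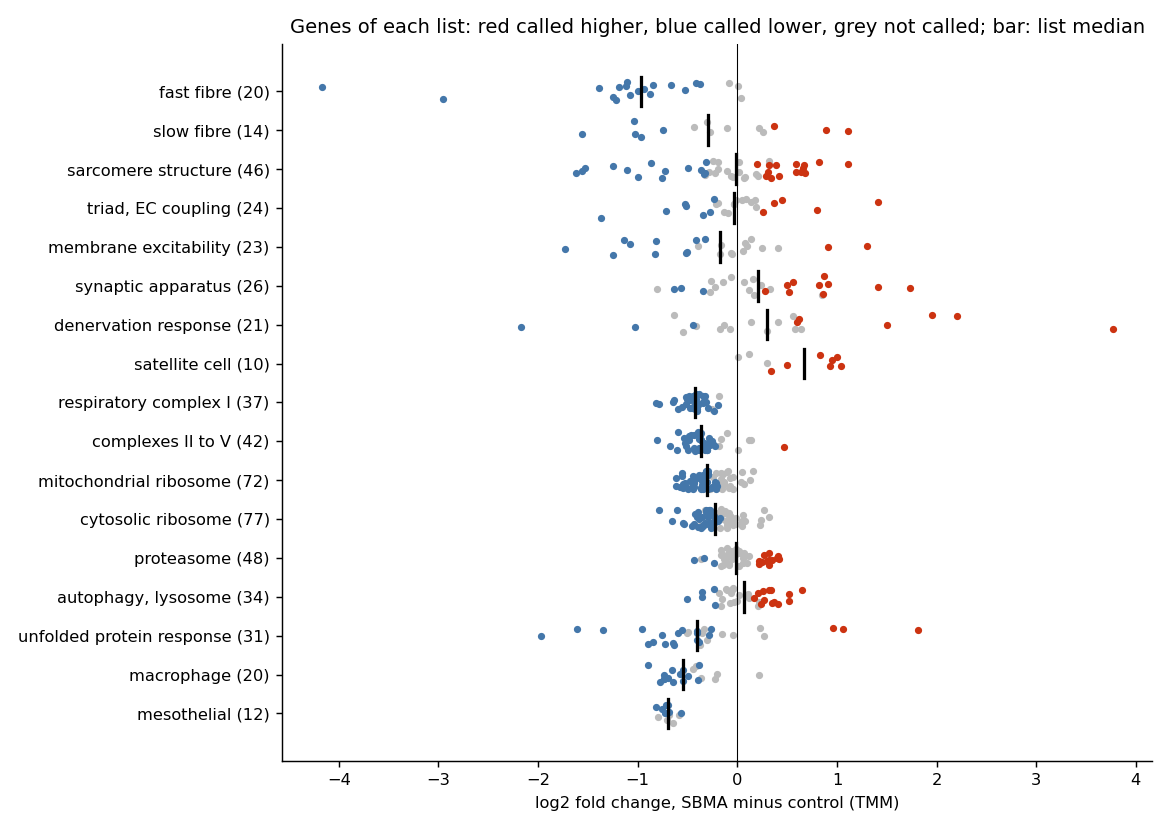
Log2 fold change (SBMA minus control, TMM factors) of each tested gene of 17 lists, with the number tested in brackets; red points were called higher, blue lower and grey neither, and a bar marks the list median. Fast-fibre genes lie to the left (median -0.97), the medians of the respiratory lists lie at -0.43 and -0.36, and satellite cell markers lie to the right (median 0.67). With total-count scaling the medians of membrane excitability (-0.17 here), triad (-0.03) and sarcomere genes (-0.01) lie above 0.

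Oxygen and fuel genes showed some of the clearest falls. Mb (ENSMUSG00000018893.15, chromosome 15, 77015487 to 77050670), the oxygen store myoglobin, measured 12278, 13863, 11747 and 11993 CPM in controls and 2292, 2458, 2570 and 2638 CPM in SBMA libraries (-2.32 ± 0.102, adjusted p = 1.47e-09). Its libraries were tightly grouped, and the lowest control lay far above the highest SBMA library. Of 38 genes of fatty acid uptake and oxidation 19 fell and 4 rose, the latter count being 2 without SBMA replicates 2 or 3 or control replicate 1, and with total-count scaling 9 fell and 8 rose. Lpl, the lipase that frees fatty acids in capillaries, measured 5019, 4389, 4923 and 5589 CPM in controls and 1551, 1706, 1912 and 1812 CPM in SBMA libraries (-1.51 ± 0.0918). Fabp3, the muscle fatty acid binder, fell by 1.06 and Acaa2 of beta-oxidation by 0.84, while Cpt1a, the non-muscle carnitine transferase, rose by 0.68 ± 0.141. Of 35 genes of glycolysis and glycogen 16 fell and 7 rose, the latter count being 4 without SBMA replicate 3 or control replicates 1 or 4, and with total-count scaling 9 fell and 8 rose. Pgam2, the muscle phosphoglycerate mutase, fell from 870 to 1360 CPM in controls to 479 to 557 CPM in SBMA libraries (-1.02 ± 0.121), Aldoa fell by 0.67 and the insulin-responsive glucose carrier Slc2a4 by 0.67. The carrier Slc2a1, abundant outside muscle, rose by 0.88 ± 0.191 with overlapping groups.

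Nmrk2 (ENSMUSG00000004939.7, chromosome 10, 81198170 to 81202051), the muscle kinase that phosphorylates nicotinamide riboside on the way to NAD, measured 187, 234, 142 and 176 CPM in controls and 11.8, 8.91, 8.67 and 16.5 CPM in SBMA libraries (-4.02 ± 0.232, adjusted p = 2.77e-08). Of 17 tested genes of NAD synthesis 6 fell and none rose, a share of 35.3% called beside 32.2% of all genes. The list median of -0.21 became 0.01 with total-count scaling, where 2 fell and 5 rose, beside 6.14% and 34.3% of all genes. Nmnat3, the mitochondrial step, fell by 0.48 on the log2 scale. Nampt, the salvage enzyme, fell by 0.39 and was not called with total-count scaling (-0.17). Other large falls were those of the Wnt inhibitor Dkk2, from 6.21 to 27.9 CPM in controls to 0.644 to 1.03 CPM in SBMA libraries (-4.08 ± 0.524), and the adhesion gene Mdga1 (-3.13 ± 0.234). Lgr6, an R-spondin receptor, fell by 2.94, the arrestin family gene Arrdc2 by 2.91, the vesicle priming gene Unc13c by 2.79 and Fam196b by 2.72. Other falls rested on control replicate 3. The albumin gene Alb was at 25.4 CPM there and at 0.134 to 2.92 CPM in the other controls, and the immunoglobulin gene Ighm was at 119 CPM there and at 10.4 to 18.1 CPM. Without that library neither was called (-2.19 and -0.93). The call of Alb was also lost without SBMA replicate 1, 2 or 4 (-4.78, -4.35 and -4.58), its value was -5.88 without SBMA replicate 3, and the call of Ighm was lost without SBMA replicate 1 (-2.09).

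Of 48 genes of the proteasome, the protein-degrading complex, 14 rose and 3 fell (median -0.01), a share of 35.4% called beside 32.2% of all genes, and 9 rose without SBMA replicate 1. With total-count scaling 23 rose and none fell (median 0.20). Members were also split by symbol alone. Among 14 genes with Psmd symbols 9 rose and none fell (median 0.24). Among 17 Psma and Psmb genes of the core 1 rose and 2 fell (median -0.10). The Psmd prefix does not define the regulatory particle, and Psmc genes were in neither set. With total-count scaling 12 Psmd genes and 2 core genes rose and none fell. This split was made after the values were seen, and the difference between both sets was not tested. Psmd1 measured 132, 131, 129 and 153 CPM in controls and 187, 176, 193 and 174 CPM in SBMA libraries (0.42 ± 0.0633), Psmd11 rose by 0.32 ± 0.0581, and Psmb8, the immunoproteasome subunit, fell by 0.44 on the log2 scale with no call under total-count scaling (-0.24). Of 34 genes of autophagy and lysosomes 13 rose and 5 fell, and with total-count scaling 20 rose and 1 fell. Map1lc3a, which coats autophagosomes, measured 205 to 243 CPM in controls and 337 to 373 CPM in SBMA libraries (0.65 ± 0.0809), Vcp, an unfolding motor mutated in a disease of muscle and motor neurons, rose by 0.52 ± 0.0687, and Becn1 by 0.41 ± 0.0609.

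Of 33 atrophy regulators 5 rose and 5 fell, a share of 30.3% beside 32.2% of all genes. With total-count scaling 10 rose and 1 fell, where 34.3% of all genes were called higher and 6.14% lower. The muscle ubiquitin ligase genes that rise in many forms of wasting did not rise here. Fbxo32 measured 580, 494, 457 and 731 CPM in controls and 446, 434, 526 and 443 CPM in SBMA libraries (-0.29 ± 0.131, adjusted p = 0.103), and it was called lower without control replicate 3 (-0.38). Trim63 measured 581, 397, 398 and 727 CPM against 393, 259, 261 and 352 CPM (-0.73 ± 0.218, adjusted p = 0.0183). The call of Trim63 was lost without SBMA replicates 2 or 3 (-0.65 each) or control replicate 4 (-0.54), and with total-count scaling (-0.50). The list's lower count was 2 and 3 without SBMA replicates 2 and 3, 8 without control replicate 2 and 3 without control replicate 4, and its higher count was 3 without SBMA replicates 1, 2 or 3 or control replicates 1 or 2. Fbxo31, a ligase substrate receptor, fell by 0.62, and Igf1r, the receptor for insulin-like growth factor, rose by 0.50 ± 0.123.

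Of 31 genes of the unfolded protein response 18 fell and 3 rose (median -0.40, and -0.18 with total-count scaling, where 13 fell and 4 rose). The chaperone cofactor gene Sdf2l1 measured 10.9, 6.75, 15.1 and 14.2 CPM in controls and 3.24, 3.25, 4.66 and 4.18 CPM in SBMA libraries (-1.61 ± 0.216), Calr, which folds glycoproteins, fell by 0.64 and Chac1, a stress target that degrades glutathione, by 1.97. The 3 that rose were Atf6, Atf3 and Ppp1r15a. Atf6, a sensor of the endoplasmic reticulum, measured 58.9, 58.1, 77.2 and 88.0 CPM against 133, 142, 138 and 135 CPM (0.96 ± 0.126). Atf3, a stress-induced transcription factor, was at 9.69 to 12.2 CPM in controls and at 90.7, 24.4, 17.9 and 18.3 CPM in SBMA libraries (1.81 ± 0.415), and its difference was 0.91 without SBMA replicate 1. Ppp1r15a, which restores translation after stress, rose by 1.06 ± 0.151. Among 37 heat shock and chaperone genes 7 rose and 9 fell, 43.2% called beside 32.2% of all genes (14 and 4 with total-count scaling). Hspa2 stood at 1.01 ± 0.165, the co-chaperone gene Dnaja4 at 0.75 ± 0.0862 and the muscle small heat shock gene Hspb6 at -0.70 ± 0.0807.

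Cytosolic ribosomal protein genes fell in 33 of 77 cases and rose in none (median -0.22), 42.9% called beside 32.2% of all genes. But with total-count scaling 2 fell and 1 rose and the median was -0.01. The lower count was 21 without SBMA replicate 1, SBMA replicate 3 or control replicate 2, and 1 gene rose without SBMA replicate 4. Rpl3l, a muscle-specific paralog, measured 535 to 618 CPM in controls and 299 to 372 CPM in SBMA libraries (-0.79 ± 0.0759), and was lower under both scalings (-0.58). Rpl4 fell by 0.32 on the log2 scale and stood at -0.11 with total-count scaling.

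Of 22 tested genes of androgen response and polyamine synthesis, a pathway that androgens raise in muscle, 5 rose and 6 fell, and with total-count scaling 6 rose and 4 fell. Odc1, the first enzyme of polyamine synthesis, measured 18.9, 26.0, 19.7 and 24.0 CPM in controls and 37.2, 34.8, 29.5 and 31.0 CPM in SBMA libraries (0.58 ± 0.129). Sms, spermine synthase, rose by 0.59 ± 0.076 and Azin1, which protects the first enzyme from degradation, by 0.66 ± 0.113. Smox, spermine oxidase, fell by 0.48 (adjusted p = 0.00302), and was not called with total-count scaling (-0.27) or within the second run (-0.18). Mylk4, a muscle kinase on the same list, fell by 1.14. Of 21 trophic factor genes 4 fell and 2 rose, a share of 28.6% beside 32.2% of all genes, and with total-count scaling 3 fell and 5 rose. Vegfa measured 450 to 660 CPM in controls and 266 to 373 CPM in SBMA libraries (-0.78 ± 0.153), Ntf5, neurotrophin 4, fell by 1.04 and Fgf7 by 0.84.

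In the dystrophin and utrophin complex, which ties the fibre to its matrix, 8 of 29 genes rose and 5 fell (17 and 1 with total-count scaling). With TMM factors this is a share of 44.8% called beside 32.2% of all genes. Dmd, dystrophin, measured 105, 77.1, 170 and 205 CPM in controls and 255, 237, 287 and 257 CPM in SBMA libraries (0.89 ± 0.22), and Dag1, dystroglycan, rose by 0.41 ± 0.0986. Collagens moved little: 1 of 31 rose and 3 fell, a share of 12.9% beside 32.2% of all genes (2 and 1 with total-count scaling). That lower count was 1 without SBMA replicates 2 or 3 or control replicates 1 or 3, and the higher count was 2 without SBMA replicate 3. Among 24 tested genes of cholesterol synthesis and uptake 7 rose and 2 fell, a share of 37.5% beside 32.2% of all genes (12 and 1 with total-count scaling). The regulator gene Insig1 stood at 1.08 ± 0.138. Of 20 clock genes 2 rose and 3 fell, a share of 25% beside 32.2% of all genes. With total-count scaling 5 rose and 2 fell, where 34.3% of all genes were called higher and 6.14% lower. Nfil3, a repressor of clock genes, stood at -1.26 ± 0.147. Their higher count was 1 without SBMA replicates 2, 3 or 4 or control replicate 2 and 4 without control replicate 4.

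Some markers of several other cell types were called lower in SBMA libraries, fewer of them with total-count scaling. Of 20 macrophage markers 14 fell and none rose, with a median of -0.55 (-0.34 with total-count scaling, 7 lower), and their summed level was 398 to 569 CPM in controls and 283 to 357 CPM in SBMA libraries. C1qb, a complement chain of tissue macrophages, measured 24.4 to 33.1 CPM against 16.5 to 18.0 CPM (-0.74 ± 0.11), and Fcer1g fell by 0.90. Of 14 endothelial markers 6 fell and none rose, 42.9% called beside 32.2% of all genes. The count of falls was 2 without SBMA replicate 1 and 3 without control replicate 2. With total-count scaling 1 fell (median -0.11). In CPM with TMM factors the groups lay apart for 1 of the 14 markers, beside 30.1% of all genes. Their sums were 1092 to 1632 and 898 to 1081 CPM. Esam, an endothelial junction molecule, fell by 0.62 on the log2 scale. Fibroadipogenic markers fell in 7 of 12 cases with overlapping sums of 3022 to 4072 and 2396 to 3391 CPM, and none fell with total-count scaling. Dcn, decorin, is one of these (-0.51, and -0.30 without a call in that scaling). Pericyte and smooth muscle markers summed to 721 to 819 CPM in controls and 590 to 651 CPM in SBMA libraries. Of the 10, 1 was called higher and 2 lower, 30% beside 32.2% of all genes (1 and 0 with total-count scaling). Those counts moved between 0 and 1 and between 1 and 4 without single animals: the higher count was 0 without SBMA replicate 2 or 3 or control replicate 1, 3 or 4, and the lower count was 1 without SBMA replicate 2 or 3 or control replicate 1 or 2 and 4 without control replicate 4. No marker of these lists was at 0 in all 8 libraries, and the part of cell mixture in the results above was not tested.

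Mesothelial markers, from the lining of the diaphragm, fell in 7 of 12 cases and in none with total-count scaling (median -0.47). The count with TMM factors was 0 without SBMA replicate 2 or 3, 1 without control replicate 4, 2 without control replicate 1 or 3, 4 without SBMA replicate 1 or control replicate 2, and 11 without SBMA replicate 4. Their sums overlapped, at 1316 to 2137 CPM in controls and 624 to 1599 CPM in SBMA libraries. Adipocyte markers summed to 1049 to 1733 and 405 to 1247 CPM. Of 11 tested 1 was called higher and 1 lower, 18.2% beside 32.2% of all genes (1 and 0 with total-count scaling). That lower count was 2 without SBMA replicate 4. The lower one was Car3, a carbonic anhydrase that muscle also expresses, at 555, 609, 853 and 512 CPM in controls and 72.1, 36.5, 378 and 349 CPM in SBMA libraries. Both low libraries belong to the first run. Its log2 fold change was -1.60 ± 0.555 (adjusted p = 0.0387), -3.42 in the first run and -0.88 in the second, and the call was lost without SBMA replicate 1 or 2 or control replicate 1, 2 or 3 (-1.65 to -1.25), with total-count scaling (-1.40), in the fit of the 8 libraries alone (-1.57) and within the second run. Schwann cell markers summed to 68.1 to 79.5 and 64.1 to 81.5 CPM, with 20% of those tested called beside 32.2% of all genes. They included 1 rise, that of the myelin gene Mal (1.57 ± 0.281), and 1 fall. The count of falls was 0 without SBMA replicate 2 or control replicate 2 and 2 without SBMA replicate 4. Erythrocyte markers, a trace of blood, summed to 170 to 269 and 140 to 256 CPM with no call.

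The library names carry animal numbers, and the 26-week animals fall into 2 runs of consecutive numbers with 2 SBMA and 2 control animals each; the labels do not say what a run stands for. The second principal component took 16.6% of the variance. The first run lay at -34.7 to -7.38 on it and the second run at 10.9 to 25.2. The main fit held no term for the run. SBMA and control were therefore compared within each run. Of genes tested, 3119 (21.2%) were called in the first run and 1616 (10.9%) in the second. Among the 14492 genes tested in both, 1145 were called in both, which is 37.2% of the 3079 first-run and 71.8% of the 1595 second-run calls, and 1142 of them had the same direction. The direction was shared by 1549 (97.1%) of the second-run calls and by 75.8% of all genes. Chrna1 differed by 2.62 and 2.04 in the runs, Prr32 by 4.22 and 4.02, Mb by -2.45 and -2.16, Nmrk2 by -4.34 and -3.65 and Myh4 by -4.34 and -4.06. Across all genes tested in both, the log2 fold changes of the runs correlated with r = 0.725, which is across genes and not across animals.

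**Figure D4:**
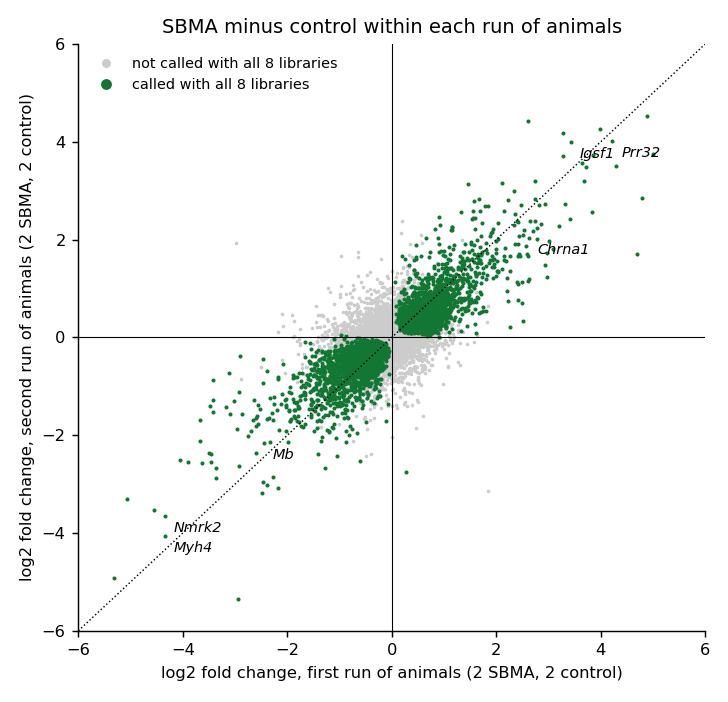
Log2 fold change of each gene within the first run of animals (horizontal) and within the second run (vertical), with genes called in the 8 libraries together in green and all others in grey; the dotted line marks equal values. Named genes such as Prr32 (4.22 and 4.02) and Mb (-2.45 and -2.16) lie close to that line.

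The difference at 26 weeks was set against that at 15 weeks, when 4 SBMA and 3 control animals were sampled and 190 genes (1.22%) were called. The interaction of genotype and age, from the fit of the 15 extrasynaptic libraries, was called for 268 genes (1.73%), 157 (1.01%) with a higher and 111 (0.715%) with a lower value at 26 weeks, and DESeq2 called 649. The 15-week animals also fall into 2 runs of numbers, 1 with 1 control and 3 SBMA animals and the other with 2 controls and 1 SBMA animal, so genotype is not balanced over them. With the runs as a block within each age, an alternative chosen after the data were seen, 224 genes were called. Of the genes named, Kif1a, Tceal7, Mylpf, Hrc, Atp1b1 and Tceal9 lost the interaction call in that fit (edgeR, adjusted p = 0.0525 to 0.0883). The count depended on single animals. It was 117, 146 and 156 without SBMA replicates 1, 2 and 4 of 15 weeks, 137 without control replicate 2 of 15 weeks, 143, 173 and 159 without SBMA replicates 1, 2 and 3 of 26 weeks and 171 without control replicate 1 of 26 weeks. The genes of the next paragraph kept their calls without each of the 15 animals in turn, except where stated.

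Nrcam ranged from 0.962 to 2.08 CPM in controls and from 1.57 to 2.07 CPM in SBMA libraries at 15 weeks, on the scale of all 30 libraries, and from 0.495 to 1.01 CPM and from 8.72 to 10.4 CPM at 26 weeks. The groups overlapped at the earlier and lay apart at the later age, and the interaction was 3.34 ± 0.35 (adjusted p = 0.00019). Nmrk2 ranged from 95.2 to 143 CPM and from 48.7 to 78.8 CPM at 15 weeks and from 143 to 238 CPM and from 8.80 to 16.7 CPM at 26 weeks (interaction -3.13 ± 0.314). Mb ranged from 10279 to 11706 CPM and from 5391 to 7539 CPM at 15 weeks (-0.72 ± 0.105), with an interaction of -1.61 ± 0.145 (adjusted p = 7.8e-05). Krt80 (2.27 ± 0.427), Myh8 (1.43 ± 0.253), Chrnb1 (1.37 ± 0.193) and the release channel gene Ryr3 (1.65 ± 0.264) had larger differences at 26 weeks. So did Kif1a (2.47 ± 0.501), whose call was lost without control replicate 2 of 15 weeks (1.67) and with the runs as a block (2.36). Chrna1, by contrast, was already called at 15 weeks (1.45 ± 0.187), and its interaction did not pass (0.85 ± 0.245, adjusted p = 0.101).

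Traf3ip3, a signalling adaptor of lymphocytes, stood at -0.21 ± 0.163 at 15 weeks and rose by 2.01 ± 0.149 at 26 weeks, where its controls measured 1.08, 1.25, 1.23 and 1.14 CPM and its SBMA libraries 4.63, 4.91, 4.72 and 4.68 CPM. Aif1l, an actin-binding protein gene, stood at -0.36 ± 0.271 and then at 1.83 ± 0.242, with SBMA replicates 3 and 4 the lower pair. Wnt16, a secreted signal, stood at 0.31 ± 0.327 and then fell by 2.08 on the log2 scale, and the epidermal regulator gene Zfp750 at 1.02 ± 0.332 and then fell by 1.38. The long noncoding RNA A930003A15Rik had an interaction of 3.01 ± 0.596, from 0.179 to 0.273 CPM in controls to 5.02 to 6.06 CPM in SBMA libraries at 26 weeks, with the call lost without control replicate 2 or 3 of 15 weeks (3.01 and 2.75). The noncoding 2310065F04Rik lies on chromosome 11 (67112461 to 67120080), on the same chromosome as Myh4. It measured 124, 96.5, 126 and 100 CPM in controls and 2.15, 3.29, 4.08 and 3.14 CPM in SBMA libraries (-5.13 ± 0.34), and was already lower at 15 weeks (-2.29 ± 0.299).

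**Figure D5:**
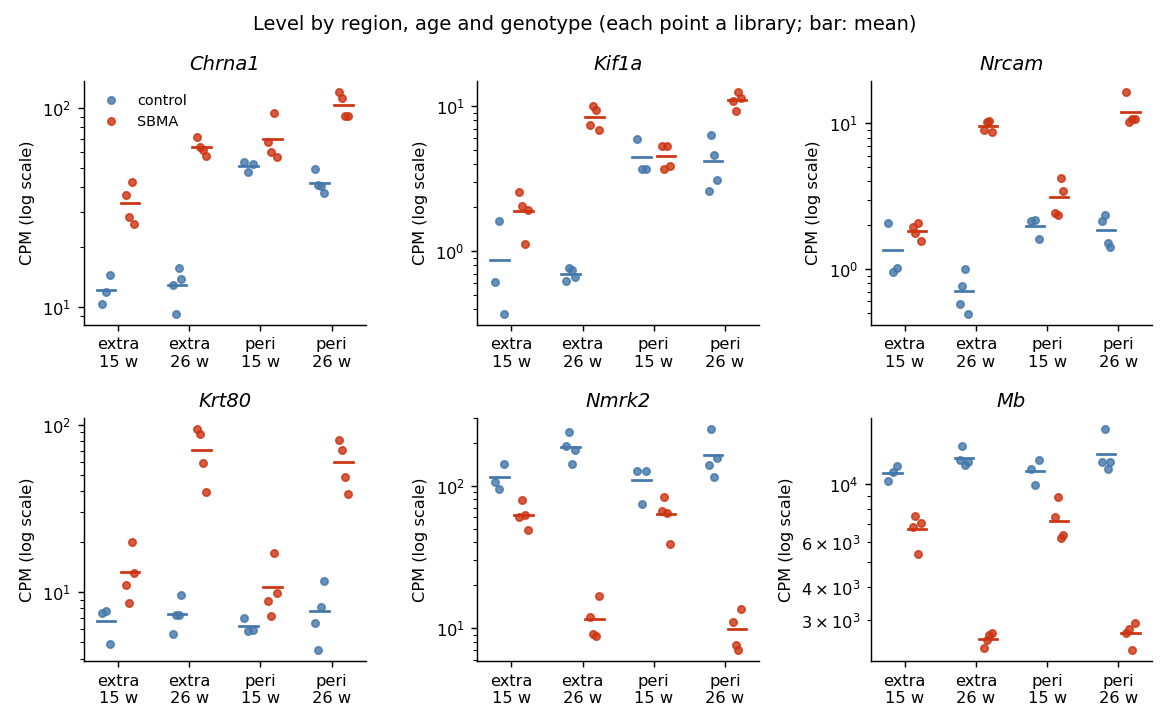
CPM on a log axis, on the scale of all 30 libraries, for 6 genes in control (blue) and SBMA (red) libraries by region (extra, extrasynaptic; peri, perisynaptic) and age, with a bar at each mean. At 26 weeks the extrasynaptic SBMA libraries of Mb sit between 2321 and 2673 CPM, all below the 15-week SBMA libraries, and those of Chrna1 between 57.0 and 71.4 CPM, above every extrasynaptic control.

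The 26-week difference was also set against that in the perisynaptic pieces of the same animals, where 2204 genes (14%) were called, 8.04% of those tested higher and 5.97% lower. In a fit with a term for each animal, the dependence of the genotype difference on region was called for 2 of 16138 genes (0.0124%), 490 had an unadjusted p under 0.05, and DESeq2 called 5. One was Chrna1, whose log2 fold change was larger away from the junctions by 1.01 ± 0.145 (adjusted p = 0.0212). This compares ratios, and the control level was lower away from the junctions. The rise in CPM was not compared between regions. On the scale of all 30 libraries it ranged from 9.24 to 15.6 CPM and from 57.0 to 71.4 CPM in extrasynaptic control and SBMA libraries, and from 37.3 to 49.5 CPM and from 90.8 to 120 CPM in perisynaptic ones. SBMA extrasynaptic muscle thus held more Chrna1 than control perisynaptic muscle, without overlap. The call was lost with total-count scaling (0.95), without the animal term (1.00), and without SBMA replicate 1, 2, 3 or 4 (1.02, 1.04, 0.96 and 1.00) or control replicate 1 (0.93). The other was the immunoglobulin segment gene Igkv14-126, which ranged from 0 to 2.35 CPM in extrasynaptic controls, from 0 to 0.137 CPM in extrasynaptic SBMA libraries and from 0 to 8.32 CPM in perisynaptic SBMA libraries, so no fold is given.

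Kif1a had a larger log2 fold change away from the junctions (2.14 ± 0.386) that did not pass (adjusted p = 0.185). Its controls ranged from 0.620 to 0.770 CPM extrasynaptically and from 2.58 to 6.37 CPM perisynaptically, and its SBMA libraries from 6.83 to 10.1 CPM and from 9.28 to 12.5 CPM. The region term of Etv5 was 0.81 ± 0.163 (adjusted p = 0.271), with 26.4 to 31.2 CPM in perisynaptic controls and 27.6 to 31.1 CPM in perisynaptic SBMA libraries. Other genes are given for both regions side by side. Mb differed by -2.32 and -2.29, Nmrk2 by -4.02 and -4.07, Igsf1 by 3.71 and 3.73, and Myh4 by -4.17 and -4.02 in extrasynaptic and perisynaptic pieces, which come from the same animals. Of the fast-fibre list 17 and 15 of 20 genes fell, and of complex I 35 and 5 of 37, with medians of -0.43 and -0.36. No gene of either list had a called region term, so a difference between regions was not shown for them.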

How the data were processed

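RNA came from a miRNeasy kit with DNA digested on the column, and sequencing libraries from KAPA's stranded mRNA kit, per the labels' protocols. The authors deposited raw counts per gene from featureCounts on mm10, per the submitters' processing notes. The aligner, annotation and strand setting were not given in the sources used here. Of 33076 gene IDs, 33064 were matched to GENCODE names on GRCm38 (746 by stable ID with another version), and 12, with 0.00171% of counts, were not.

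Computed here were TMM factors and edgeR 4.0.16 quasi-likelihood fits in R 4.3.3, after filterByExpr (minimum count 10, minimum total 15), on the 15 extrasynaptic libraries with a mean per genotype and age. The region term came from all 30 libraries with animal terms. The spread of the 26-week groups is thus shared with the 15-week groups. SE is the absolute log2 fold change over the root of the F statistic. The pipeline was tested on simulated data. DESeq2 1.42.0 was an alternative, beside RLE factors, total-count scaling, no filter, blocks, single runs and leaving out each animal. Intervals from counting were not used, since all tests rest on animals.

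Genes were named by a rule: the 12 largest rises and the 12 largest falls of genes that were called, with at least 2 CPM and an established symbol, in each list the 4 members of smallest p and the largest rise and fall, up to 6 genes each way for each interaction, the marker lists and a fixed set. A selection is given. Members and lists were chosen with earlier results of these data known. The same replicate number did not pair animals across groups.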

Additional observations from a re-analysis of the deposited data

Results flagged for a closer look

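The difference between SBMA and control changed with age for 40 of the genes named, by the interaction term of edgeR's quasi-likelihood test. On the log2 scale the interaction (26 weeks minus 15 weeks) was above 0 for 19 genes. The values were Nrcam 3.34, A930003A15Rik 3.01, Kif1a 2.47, Krt80 2.27, Traf3ip3 2.22, Aif1l 2.18, Hectd2os 1.93 and Bex1 1.71. They were next Ryr3 1.65, Tceal5 1.59, Myh8 1.43, Ncam1 1.38, Chrnb1 1.37, Tceal7 1.37, Igsf1 1.21 and Ppp1r15a 0.96. The last were Insig1 0.91, Gramd1b 0.81 and Tceal9 0.55. It was below 0 for 21 genes. The lowest values were Nmrk2 -3.13, 2310065F04Rik -2.83, Lgr6 -2.62, Wnt16 -2.39, Zfp750 -2.39, Unc13c -2.0, Fam196b -1.88 and Mb -1.61. Next came Mdga1 -1.59, Pvalb -1.49, Tmod4 -1.09, Myh2 -1.08, Lpl -0.96, Atp1b1 -0.83 and Kcna7 -0.82. The last were Myoz1 -0.62, Rpl3l -0.55, Mylpf -0.54, Uqcrc1 -0.53, Mrpl18 -0.43 and Hrc -0.38. Of these 40 genes, 22 kept the call without each of the 15 animals in turn and 18 lost it at least once.

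The log2 fold change also depended on region for Chrna1, by 1.01, and for Igkv14-126. The fitted interaction of Igkv14-126, -10.93, comes from a gene at or near 0 in most libraries and is no bound.

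In 16 of 282 groups of 4 libraries, 1 library stood far from the other 3, by Dixon's ratio, where chance gives about 1 group in 20. Among controls, replicate 3 was highest for Alb at 25.4 CPM, replicate 3 was highest for Ighm at 119 CPM and replicate 4 was highest for Myh2 at 10954 CPM. In the same group, replicate 4 was highest for Psmd1 at 153 CPM and replicate 4 was highest for Dnaja4 at 254 CPM. In controls also, replicate 2 was highest for Esam at 43.8 CPM and replicate 4 was highest for Igf1r at 64.5 CPM. Among SBMA libraries, replicate 4 was highest for Myh4 at 368 CPM, replicate 3 was highest for Mdga1 at 3.47 CPM and replicate 4 was lowest for Fam196b at 2.11 CPM. In that group, replicate 4 was lowest for Kcna7 at 35.1 CPM, replicate 4 was highest for Chrne at 1.70 CPM and replicate 2 was highest for Slc2a4 at 548 CPM. In SBMA libraries also, replicate 1 was highest for Atf3 at 90.7 CPM, replicate 3 was highest for Fbxo32 at 526 CPM and replicate 2 was highest for Igkv14-126 at 0.136 CPM.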

How the results depend on the processing

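Of the 140 genes named and tested, no called gene changed sign under an alternative, and of 133 called 126 kept the call without each of the 8 animals in turn and 103 in every alternative. Total-count scaling ended 10 of these calls, the fit of the 8 libraries alone 2, the first run alone 8 and the second run alone 27, where fewer animals were compared. The count of called genes, 5007, was 3119 within the first run and 1616 within the second, and 3972 to 5139 without single animals. DESeq2 called 5288 genes, RLE factors 4992, no filter 4420, the 8 libraries alone 4082, the run as a block 4860 and total-count scaling 6286. Samples with the same replicate number deviated together in 3 of 4 pairs (correlation over 0.1) but not in the other (0.00784). The mean correlation was 0.128 for these pairs, 0.122 for all pairs within a run and -0.122 for pairs across runs. The replicate numbers were therefore not taken to pair animals, and a fit with that number as a replicate block called 4165 genes. That block and the run block raised Chrnd past the threshold (0.88 and 0.89), and the replicate block also Runx1 (0.64).

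The age interaction count, 268, was 649 with DESeq2, 224 with the runs as a block and 117 to 342 without single animals. The region count, 2, was 5 with DESeq2, 65 with no filter, 1 with total-count scaling, 0 without the animal term and 0 to 3 without single animals. The cause was not tested. Genes below about 1 CPM, such as Chrne and Chrng, rest on few counts.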

Other observations

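Genes on the X chromosome and on the mitochondrial genome were counted as groups after the values were seen, so the counts are a description. Of 488 tested X-linked genes 121 (24.8%) were called higher and 65 (13.3%) lower, beside 16.1% each way over all genes, with a median log2 fold change of 0.05. The X-linked genes named above are Prr32, Igsf1, Dmd, Sms, Atp1b4 and members of the Tceal and Bex family. Of 20 tested genes of the mitochondrial genome 7 (35%) were called lower and none higher, with a median of -0.40. Of the 7 protein-coding genes among them 3 were called lower and none higher (median -0.21). With total-count scaling 2 of these 7 were called lower and 1 higher (median 0.00). The share of the whole mitochondrial genome in all counts was 11.8% ± 0.543 (SD, n = 4) in controls and 11.2% ± 0.395 (SD, n = 4) in SBMA libraries.

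Genes called lower took 46.5% ± 2.36 (SD, n = 4) of control counts and 33.1% ± 0.782 (SD, n = 4) of SBMA counts. Genes called higher, almost the same number, took 10.6% ± 0.339 and 17.1% ± 0.557. Both sets were picked by their calls in these same libraries, so the direction of the shares largely follows from that choice.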
